A study of Mus musculus with 6 samples.

Results

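Binding of HA-tagged CDK6 was examined at exonic regions lying outside promoters in mouse B-lymphoid leukemia cells. Peaks of the 4 anti-HA ChIP-seq lists that shared at least 1 bp were merged, and a merged region was called shared when at least 3 lists had a peak in it. Of 22973 shared regions on chromosomes 1 to 19 and X, 1415 overlapped an annotated exon but no promoter window, which ran from 2000 bp before a transcript start to 200 bp after it. These exonic regions made up 6.16% of the shared regions (95% Wilson interval 5.86 to 6.48) and 11.8% of the 11980 shared regions outside promoters. The others were 10993 promoter regions, 5845 intronic regions and 4720 intergenic regions.

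The cells were pre/pro-B lines transformed by BCR::ABL1 on a Cdk6-/- background, in which an HA-tagged form of the protein was overexpressed. One group carried wildtype CDK6 (CDK6-WT) and the other carried the kinase-inactive mutant CDK6-K43M, with 2 libraries in each. The labels also name 2 Input libraries, which were not analysed here. Both groups express the tagged protein from a construct, and nothing in the labels says whether the replicates came from separate cell lines or cultures, so the spread between them may be technical. The lists held 34729 to 39797 peaks each.

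CDK6 is a cyclin-dependent kinase that drives the entry into the cell cycle and that also associates with chromatin, although it has no DNA-binding domain of its own. Exons encode the mature transcript, but they can also hold binding sites for transcription factors, and enhancers inside genes can reach into exons. RUNX, EBF and ETS proteins such as PU.1 are well-known factors at enhancers of B-lineage cells.

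The strongest exonic regions are shown first. Strength was taken as the percentile of a peak's −log10 q among all peaks of its own list, so that a value of 100 is the strongest peak of that library. Each window printed here is 101 bp long, centred on the summit of a region's strongest peak and read on the plus strand of mm10. Capitals mark matches on either strand to RUNX (TGTGGTT), EBF (CCCNNGGGA), PU.1-type ETS (GAGGAAGT), ETS (CCGGAAG), NRF-1 (CGCATGCG) or CTCF (AGGGGGCG). The summit of the first window lies in coding sequence of Wnt10a, and it holds none of these motifs.
Wnt10a, chr1:74800557-74800657: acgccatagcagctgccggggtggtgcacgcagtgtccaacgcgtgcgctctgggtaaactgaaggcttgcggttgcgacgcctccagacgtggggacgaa
N4bp3, chr11:51644440-51644540: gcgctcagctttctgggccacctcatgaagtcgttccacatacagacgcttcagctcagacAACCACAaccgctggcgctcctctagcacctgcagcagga
Notch1, chr2:26483271-26483371: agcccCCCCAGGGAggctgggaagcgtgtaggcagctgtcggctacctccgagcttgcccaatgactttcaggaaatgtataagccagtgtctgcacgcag
Zfp950, chr19:61057541-61057641: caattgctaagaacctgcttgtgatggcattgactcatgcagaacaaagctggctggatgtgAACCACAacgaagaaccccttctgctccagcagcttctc
Slit1, chr19:41615975-41616075: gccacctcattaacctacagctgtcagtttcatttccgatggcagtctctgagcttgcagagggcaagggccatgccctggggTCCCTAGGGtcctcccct

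Wnt10a, which encodes a secreted WNT ligand, had the strongest exonic region. Its percentiles were 99.1 and 99.7 in the CDK6-WT libraries and 99.0 and 99.7 in the CDK6-K43M libraries. The region spanned 2525 bp (chr1:74799402-74801926) and its summit lay in coding sequence. A second Wnt10a region (chr1:74802873-74803993) had percentiles of 89.1, 94.9, 89.4 and 82.2 in the same order, and its summit lay in coding sequence as well. N4bp3 followed with percentiles of 99.0, 99.0, 97.8 and 99.4. Notch1, the receptor that directs lymphoid cells to the T lineage, had percentiles of 95.5, 98.9, 98.5 and 98.5, with its summit in an intron and an exonic share of only 2.1% of the region. The other regions among the 10 strongest were at Manbal, Cyb5a, Zfp950, Naa40, Slit1, the lincRNA Gm47705 and Zdhhc7. In all 10, each of the 4 libraries was above the 92nd percentile. The summit lay outside every exon in 5 of the 10.

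**Figure D1:**
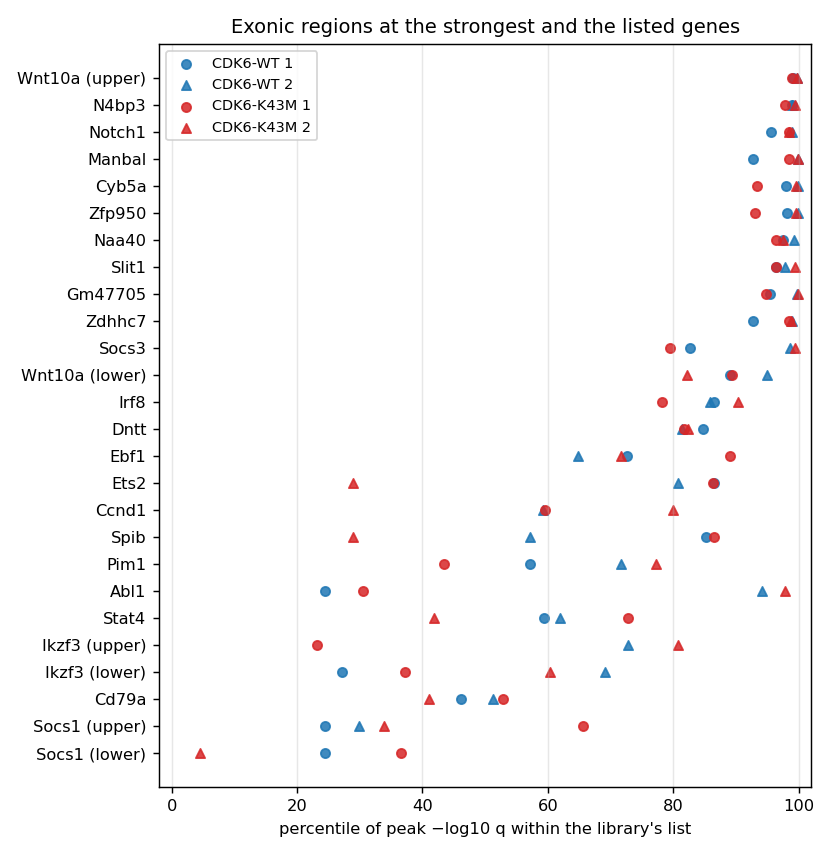
Percentile of the peak's −log10 q (x axis) for exonic regions at the 10 strongest sites and at the genes of the fixed lists (y axis), with 1 point per library. Blue is CDK6-WT and red is CDK6-K43M, circles are replicate 1 and triangles replicate 2. The 10 strongest sites lie close together at the right, while Abl1 lies below 31 in both circles and above 94 in both triangles.

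Within genes, the exonic regions were spread over every kind of exon. Classed in the order coding sequence, 5′UTR, 3′UTR and noncoding exon, coding sequence was overlapped by 751 regions (53.1%), 3′UTRs without coding sequence by 245 (17.3%), 5′UTRs by 29 (2.0%) and noncoding exons alone by 390 (27.6%). The summit itself lay inside an exon at 795 regions (56.2%, Wilson interval 53.6 to 58.7), in an intron at 547 and between genes at 73. Exonic bases filled a median of 49.3% of a region, and 442 regions lay wholly in exons. A last exon of any transcript of the gene was overlapped by 709 regions (50.1%) and an internal exon by 645 (45.6%). A region can count in both. The summit lay less than 500 bp from a transcript end at 490 regions (34.6%). The median distance from the summit to the nearest transcript start was 3748 bp, against 7858 bp for the intronic regions. Protein-coding genes accounted for 1141 regions and lincRNA genes for 130. The regions lay in 1228 genes, of which 22 had at least 3. Med12l, St8sia4 and Trio had 4 each, and Rhoh, which encodes a haematopoietic GTPase, had 3.

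The strongest regions of each exon class had percentiles above 74 in every library, with values given in the order CDK6-WT 1, CDK6-WT 2, CDK6-K43M 1 and CDK6-K43M 2. Among regions over 5′UTRs, Olfr1226, an olfactory receptor gene, had percentiles of 86.3, 96.6, 74.7 and 95.5. Pik3cd, the catalytic subunit of a PI3-kinase of leukocytes, had 98.4, 91.4, 82.8 and 79.9, so both CDK6-WT libraries were above both CDK6-K43M libraries (log2 difference -0.66, SE 0.44, limma adjusted p = 1.0). Nrros had 75.8, 91.1, 87.8 and 94.5. Among regions over 3′UTRs, Naa40, an N-terminal acetyltransferase, had 97.4, 99.2, 96.3 and 97.5. C87436 had 99.1, 92.7, 98.4 and 92.6, with both replicate 1 libraries above both replicate 2 libraries. Parvb, which links integrins to actin, had 98.5, 92.7, 95.4 and 95.2, and its region lay wholly in exons. Among noncoding exons, Vwa8 had 96.2, 93.0, 98.1 and 97.7, and its region was wholly exonic too.

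Levels by exon class were compared without a test. Over coding sequence the median percentile was 59.97, 70.8, 63.2 and 73.5 in the 4 libraries, over 3′UTRs 57.7, 66.3, 64.3 and 71.6, and over noncoding exons 57.7, 65.5, 63.6 and 70.9. The 29 regions over 5′UTRs had 53.2, 61.3, 70.2 and 65.3. In the classes other than 5′UTR, each replicate 2 library was above the replicate 1 library of the same variant.

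Per base, exons outside promoters carried more summits than introns. Counting the summits of the 11980 shared regions that overlap no promoter window, over all bases outside those windows, exons held 8.26 per Mb (95% interval 7.69 to 8.85), introns 6.34 (6.19 to 6.50) and intergenic DNA 3.74 (3.64 to 3.85). Coding sequence had 8.07 per Mb, noncoding exons 8.15, 3′UTRs 8.17 (7.19 to 9.24) and 5′UTRs 17.0 (10.8 to 25.5, from 23 summits). When summits of promoter regions that fall just outside the windows were added, a count chosen after seeing the data, exons held 10.4 per Mb, introns 6.80 and 5′UTRs 45.9, and 39 of the 62 summits in 5′UTRs then belonged to promoter regions. The intervals of shares and densities here cover counting error only. The areas were not corrected for bases where reads have several matches, and the part of this in the densities was not tested.

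The genes with an exonic region often had a bound promoter too. Of 974 protein-coding genes with an exonic region, 625 (64.2%, Wilson interval 61.1 to 67.1) also had a shared region in a promoter window, against 9101 of all 21755 protein-coding genes (41.8%). The share was 69.0% (67.2 to 70.7) for genes with a shared intronic region. Promoters of B-lineage marker genes had a shared region in 9 of 10 cases, against 2 of 10 for T-lineage markers, 1 of 10 for myeloid markers and 0 of 10 for erythroid markers. An exonic region lay at 2 of the B-lineage markers (Cd79a and Ebf1), at 1 of the T-lineage markers (Cd3d), at 2 of the erythroid markers (Hbb-bt and Klf1) and at none of the myeloid markers.

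A few genes on the list of B-lineage transcription factors had exonic regions. Of the 18 listed, 4 did (22.2%, Wilson interval 9.0 to 45.2): Ebf1, Ikzf3, Irf8 and Spib. Among all protein-coding genes the share was 4.48%. Ebf1, a pioneer factor of B-cell commitment, had percentiles of 72.7, 64.8, 89.0 and 71.6 at the edge of its last exon, in the order CDK6-WT 1, CDK6-WT 2, CDK6-K43M 1 and CDK6-K43M 2. Irf8, a factor of B and myeloid development, had 86.5, 85.8, 78.3 and 90.3. Spib, an ETS factor related to PU.1, had 85.2, 57.2, 86.5 and 29.0, so the 4 libraries did not fall together there. Cd79a, the signalling chain of the B-cell receptor, had 46.2, 51.3, 52.8 and 41.1, and Dntt, which adds bases at the junctions of immunoglobulin genes, had 84.8, 81.4, 81.6 and 82.4. Cd79a and Dntt were 2 of the 20 genes listed for the pre-B receptor and the B-lineage surface. One Ikzf3 region, in a noncoding exon of this Ikaros-family gene, had 27.1, 69.1, 37.3 and 60.3. At none of these genes did the values separate CDK6-WT from CDK6-K43M. The 101 bp around the summit held no exonic base at Ebf1, Irf8 and Dntt, and were wholly exonic at Spib and Cd79a. Of the markers of other lineages, Cd3d, a chain of the T-cell receptor complex, had 94.5, 74.0, 95.8 and 86.1, and Klf1, an erythroid factor, had 54.1, 63.9, 63.6 and 49.4. Hbb-bt, a beta-globin gene, had 1.40, 87.4, 62.9 and 79.9, with no exonic base in the 101 bp around its summit.

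Genes of cytokine signalling also had exonic regions, at 4 of 18 (Pim1, Socs1, Socs3 and Stat4). Socs3, an inhibitor of JAK-STAT signalling, had percentiles of 82.6, 98.7, 79.5 and 99.5, with both replicate 2 libraries above both replicate 1 libraries. The coding-exon region of Socs1 had 24.4, 29.9, 65.6 and 33.9. Pim1, a kinase induced by cytokines, had 57.1, 71.7, 43.4 and 77.3. The 101 bp around the summits of Socs3, Pim1 and Stat4 held no exonic base. The remaining lists had a region at 1 of 16 ETS and RUNX genes (Ets2), 1 of 20 cell-cycle genes (Ccnd1) and 1 of 39 genes of WNT, FGF, Hedgehog and BMP signalling (Wnt10a). Across all protein-coding genes 4.48% had one. Of the genes encoded by the constructs (Cdk6, Abl1 and Bcr), Abl1 had an exonic region at the edge of its 3′UTR, with percentiles of 24.4 and 30.5 in the replicate 1 libraries and 94.1 and 97.8 in the replicate 2 libraries. Neither Cdk6 nor Bcr had one, and no shared region outside promoters overlapped a coding exon of Cdk6, Abl1 or Bcr.

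Antigen receptor V gene segments formed a small group, which was picked out after its values were seen. Of 362 annotated V gene segments, 11 had an exonic region, 9 of them immunoglobulin and 2 T cell receptor segments. All 11 summits lay outside every transcript, 15 to 123 bp from a transcript end, and 5 of the regions had a peak in all 4 lists. Their mean percentiles were modest, with a median of 48.7 and a range of 27.1 to 73.1. V gene segments include near-identical copies, the authors removed reads with several matches, and the part of this in the values was not tested. A RUNX motif lay within 100 bp of the summit in 3 of them, a PU.1-type ETS motif in 2, an AP-1 motif (TGANTCA) in 2 and an E-box (CAGGTG) in 1. The RUNX match not printed here was at the T cell receptor segment Trbv20. The windows of 2 heavy-chain and 2 kappa segments are given because each carries a RUNX or PU.1-type ETS motif.
Ighv14-2, chr12:113994387-113994487: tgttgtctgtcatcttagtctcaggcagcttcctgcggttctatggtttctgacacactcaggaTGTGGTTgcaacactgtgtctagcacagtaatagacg
Ighv1-54, chr12:115193610-115193710: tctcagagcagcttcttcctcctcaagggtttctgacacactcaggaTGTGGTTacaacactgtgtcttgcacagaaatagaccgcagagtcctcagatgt
Igkv8-30, chr6:70116942-70117042: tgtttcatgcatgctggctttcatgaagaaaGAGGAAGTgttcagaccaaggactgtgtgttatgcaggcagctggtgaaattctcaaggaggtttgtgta
Igkv8-21, chr6:70314745-70314845: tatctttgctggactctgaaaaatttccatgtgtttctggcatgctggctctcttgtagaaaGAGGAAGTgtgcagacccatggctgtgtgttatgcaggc

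Summits of the exonic regions carried the motifs of lymphoid factors, as did those of intronic and intergenic regions. Within 100 bp of the summit, the RUNX motif was found in 189 regions (13.4%, Wilson interval 11.7 to 15.2), against 4.88% (4.14 to 5.73) of windows of the same length 1000 bp away. The EBF motif was found in 212 regions, a share with an interval of 13.2% to 16.9%, against 3.82% of the flanks, and the PU.1-type ETS motif in 8.48% (7.14 to 10.1) against 1.13%. The RUNX motif was found in 14.1% of intronic, 13.4% of intergenic and 4.64% of promoter regions, and in 9.38% of all shared regions. The EBF motif was found in 13.8% of intronic, 13.75% of intergenic and 8.16% of promoter regions, and in 11.2% of all shared regions. For PU.1-type ETS these shares were 9.15%, 7.84%, 3.94% and 6.35%. The ETS motif that is common at promoters was found in 3.53% of exonic regions (2.69 to 4.63) and 1.10% of their flanks. It was found in 2.28% of intronic, 2.71% of intergenic and 16.1% of promoter regions. The CTCF motif was found in 2.47% of exonic regions (1.78 to 3.42) and 0.53% of their flanks. For CTCF the shares were 1.08% (0.84 to 1.38) of intronic, 1.84% of intergenic and 7.10% of promoter regions. AP-1 (TGANTCA) was found in 6.71% of exonic regions, with 10.1% of intronic and 10.5% of intergenic regions, and the E-box (CAGGTG) in 19.4%, with 16.6% of its flanks. Regions with a RUNX motif had a median mean percentile of 67.2, and those without it 59.9. When the regions were put in 3 equal groups by mean percentile, the RUNX share was 8.47%, 13.8% and 17.8% from the lowest to the highest. This was not particular to RUNX. In the same order the PU.1-type ETS share was 5.51%, 9.34% and 10.6%, and the EBF share 13.3%, 13.0% and 18.6%. The E-box went the other way, with 20.3%, 19.1% and 18.6%.

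**Figure D2:**
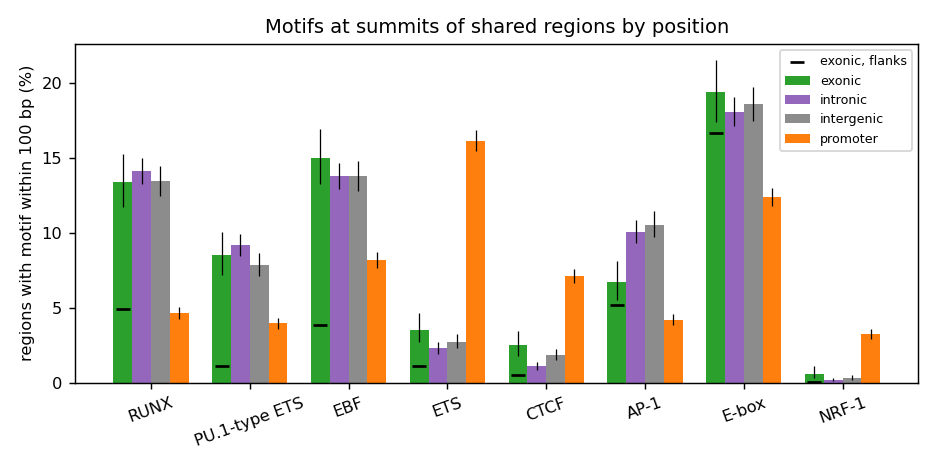
Share of shared regions (y axis, %) with a motif within 100 bp of the summit, for 8 of the 12 motifs searched (x axis) and for the 4 positions of a region. Lines are 95% Wilson intervals and black dashes mark the exonic flanks. Exonic bars stand near the intronic and intergenic bars for RUNX and EBF, and the promoter bar is far higher for ETS.

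The NRF-1 motif, that of a factor controlling genes of mitochondrial respiration, was rare. It was found at 8 exonic regions (0.57%, Wilson interval 0.29 to 1.11), against 3.21% of promoter, 0.17% of intronic and 0.32% of intergenic regions, and 1.68% of all shared regions. In the flanks of the exonic regions it was found in 1 of 2830 windows (0.04%). The 8 regions were at Gm14486, Ppp1r37, Zfp771, Gdf15, A230052G05Rik, Angptl6, Gm48545 and Synpo. Angptl6 had percentiles of 98.3 and 99.3 in the replicate 1 libraries and 71.7 and 92.1 in the replicate 2 libraries. In the windows of Angptl6, coding on all of its 101 bases, and of the lincRNA Gm48545 the motif stands in capitals, with a PU.1-type ETS match near the end of the latter.
Angptl6, chr9:20878369-20878469: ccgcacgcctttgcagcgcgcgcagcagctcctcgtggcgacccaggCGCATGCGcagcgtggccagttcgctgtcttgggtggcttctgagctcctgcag
Gm48545, chr10:19094397-19094497: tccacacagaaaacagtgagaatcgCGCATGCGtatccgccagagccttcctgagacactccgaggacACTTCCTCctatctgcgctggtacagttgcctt

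Base composition at the exonic summits lay between that of promoters and that of the other regions. The mean GC content within 100 bp of the summit was 52.9%, with 50.1% at intronic, 50.5% at intergenic and 61.6% at promoter regions. The difference between exonic and intronic regions was 2.81 percentage points (95% interval 2.37 to 3.25, from the spread between regions). Windows with over 50% GC and a CpG content over 0.6 of that expected made up 12.4% of the exonic regions, 3.05% of the intronic and 64.7% of the promoter regions.

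The variants were compared at these regions, all of which had a peak in both variants by the rule that chose them. Whether the kinase-inactive protein binds the same exonic sites therefore cannot be read from this set. A peak was present at 1284 and 1288 of the 1415 regions in the CDK6-WT libraries and at 1351 and 1318 in the CDK6-K43M libraries, so both CDK6-K43M libraries had more. The difference in means was 48.5 regions, given without a test because a peak in at least 3 lists was what chose the regions. It was 32.0 without CDK6-K43M replicate 1, and 29.5 and 18.0 when every peak needed a −log10 q of 5 or 10. All 4 lists had a peak at 996 regions (70.4%). The 419 regions in 3 lists lacked a peak in CDK6-WT 1 at 131, in CDK6-WT 2 at 127, in CDK6-K43M 1 at 64 and in CDK6-K43M 2 at 97. The whole CDK6-K43M lists were also longer, with 39797 and 37304 peaks against 35189 and 34729, and the part of this in the difference was not tested. The median percentile of the regions was 58.6 and 68.3 in CDK6-WT and 63.6 and 73.3 in CDK6-K43M (difference 5.02, 2-sided exact permutation test, p = 0.667, where 0.333 is the smallest p that 2 against 2 libraries can give).

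At the level of single regions, no difference between the variants passed the test. limma on the log2 fold enrichment of the 16376 shared regions in all 4 lists called 0 of the 996 exonic regions at an adjusted p of 0.05, against a background of 0.0% called among all regions, and 2 exonic regions (0.20%) had an unadjusted p under 0.05, with 10 of all regions (0.06%). This fit left out the replicate number, although libraries of the same number were alike, so few p-values were low and it cannot show that the variants agree. With the number as a block, limma called 0 exonic regions and 1 of all 16376. Then 55 exonic regions (5.52%) and 839 of all (5.12%) had an unadjusted p under 0.05. The log2 difference was below 0.5 in size at 92.1% of the exonic regions. Both CDK6-K43M libraries were above both CDK6-WT libraries at 87 exonic regions (8.73%, background 7.27%) and below them at 60 (6.02%, background 8.07%).

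The regions with the lowest p in each direction were as follows. Vim, which encodes vimentin, had fold enrichments of 2.64 and 2.93 in CDK6-WT and 5.58 and 7.40 in CDK6-K43M (log2 difference 1.20, SE 0.48, limma adjusted p = 1.0). The reads at the Vim summit, recovered from the deposited values, were 18 and 18 in CDK6-WT and 23 and 18 in CDK6-K43M. Reads are given here as counts not scaled for library depth, whereas fold enrichment is a ratio to the local background. The part of the background in the difference at Vim was not tested. Irf5, a factor of interferon responses, had percentiles of 50.4 and 48.0 in CDK6-WT and 83.9 and 91.4 in CDK6-K43M, with 23 and 17 reads against 42 and 28. Osbpl5 had percentiles of 43.3 and 62.4 against 82.7 and 94.2. Gm11946 had percentiles of 84.8 and 90.8 in CDK6-WT against 66.5 and 65.2 in CDK6-K43M. Its reads were 33 and 30 against 41 and 24, so these unscaled counts overlapped between the variants. Mapk12 had fold enrichments of 15.7 and 13.8 against 9.66 and 6.45. Epb41l4b had fold enrichments of 7.37 and 8.08 against 5.73 and 3.36. The adjusted p was 1.0 for each of them in limma without a replicate block. With the replicate number as a block, the limma adjusted p was 0.089 for Vim (SE 0.28) and 0.31 for Gm11946. It was 0.47 for Osbpl5 and for Mapk12, 0.54 for Irf5 and 0.60 for Epb41l4b.

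The libraries resembled each other by replicate number more than by variant. Over the 996 exonic regions in all 4 lists, the log2 fold enrichment of CDK6-WT 1 had a Pearson correlation of 0.78 with CDK6-K43M 1, and that of CDK6-WT 2 one of 0.81 with CDK6-K43M 2. Between the 2 CDK6-WT libraries it was 0.26 and between the 2 CDK6-K43M libraries 0.19. These correlations run across regions, which are not independent replicates. The variants differed by more than 1 on the log2 scale at 13 regions in replicate 1 and at 22 in replicate 2, whereas the replicates differed by that much at 195 regions in CDK6-WT and at 236 in CDK6-K43M. Summits lay at a median of 37 to 47 bp from each other in all pairs of libraries.

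**Figure D3:**
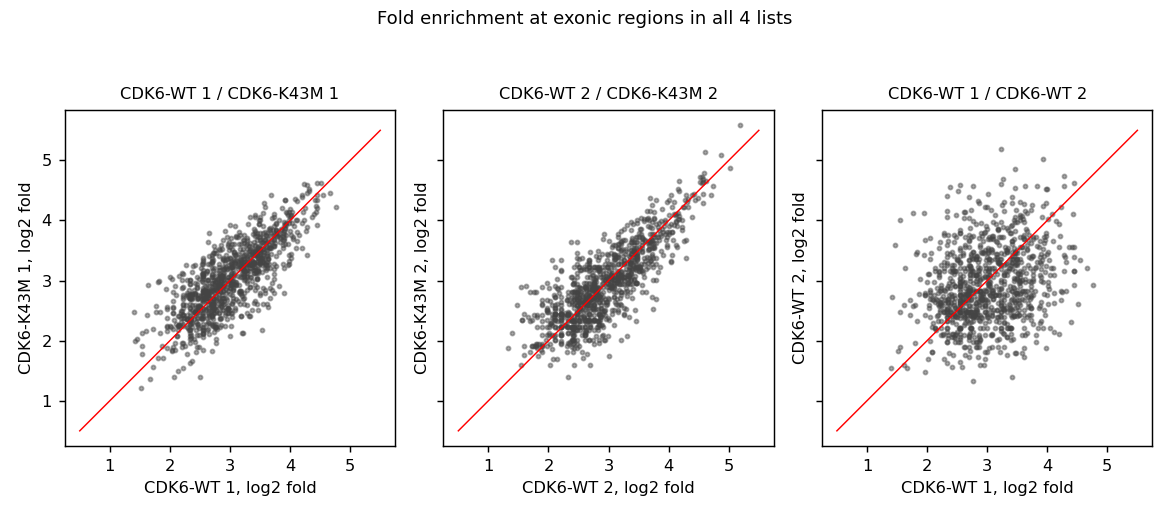
Log2 fold enrichment of the 996 exonic regions in all 4 lists in one library (x axis) against another (y axis), with 1 point per region and the line of equal values in red. Points follow the line for the pairs with the same replicate number (correlations of 0.78 and 0.81) and scatter for the 2 CDK6-WT libraries (0.26).

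The regions outside promoters stood relatively higher in the replicate 2 libraries and promoters in the replicate 1 libraries. The median percentile of the exonic regions was 58.6 and 63.6 in replicate 1 and 68.3 and 73.3 in replicate 2, while that of promoter regions was 75.4 and 78.1 in replicate 1 and 57.8 and 59.6 in replicate 2. The intronic regions had 53.3 and 56.7 against 69.1 and 71.6, and the intergenic regions 58.7 and 60.4 against 64.8 and 67.3, so the shift was not particular to exons. Base composition moved with this shift inside the set. The 996 regions were put in 3 groups of 332 by the difference between their replicate 1 and replicate 2 percentiles. CpG-rich windows made up 6.02% of the group that was higher in replicate 2, 9.04% of the middle group and 20.8% of the group that was higher in replicate 1, and the mean GC content was 50.4%, 52.7% and 55.9%. The 7 regions with an NRF-1 motif among them all fell in the group that was higher in replicate 1. The median log2 difference between the variants was 0.01, 0.01 and -0.01 in the same groups. The labels do not say what the replicate number marks, and its part in the shift was not tested.

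**Figure D4:**
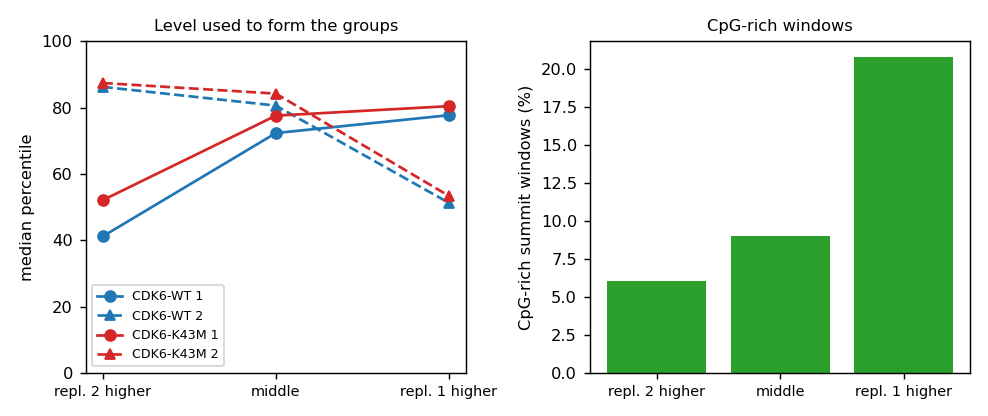
Left, median percentile of each library (y axis) in 3 groups of the exonic regions formed from the difference between replicates (x axis), so that its crossing lines are given by the choice. Right, share of CpG-rich summit windows (y axis, %) in the same groups, rising from 6.02% to 20.8%.

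Compared with the intronic regions, the exonic regions did not differ in strength beyond the spread. Their median percentile exceeded that of the intronic regions by 3.29 ± 3.51 (SD, n = 4 libraries) and was higher in 3 of 4 libraries (exact sign-flip permutation test, p = 0.25). This difference was 2.08 without CDK6-K43M replicate 1 and 1.20 when the summit had to lie inside an exon. It exceeded that of the intergenic regions by 3.16 ± 2.45 (3 of 4 libraries, exact permutation test, p = 0.25), and by 1.58 with the summit inside an exon. The median peak width was 386 bp, 22.4 bp more than at the intronic regions (4 of 4 libraries, exact permutation test, p = 0.125, the smallest p that 4 libraries can give). This width test is tied to the rule, since any overlap with an exon chose the regions and wider peaks meet exons more often. The width difference was -7.25 bp when the summit had to lie inside an exon. The median number of reads at the summit was 23, 22, 28 and 20 in CDK6-WT 1, CDK6-WT 2, CDK6-K43M 1 and CDK6-K43M 2, so that single regions rest on few reads.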

How the data were processed

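Anti-HA ChIP-seq peaks were analysed in 2 CDK6-WT and 2 CDK6-K43M libraries. Per the labels, reads were handled with Trimmomatic 0.36, BWA 0.7.15, SAMtools 1.3.1 and MACS2 2.1.0, on mm10, after DSG and formaldehyde crosslinking, and the authors called peaks in each library. The deposited lists give, for every peak, an integer score, a fold enrichment, −log10 values of p and q, and the position of the summit as another value. These were used as deposited.

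Peaks sharing 1 bp were merged and regions with a peak in at least 3 lists were classed against GENCODE release M21 (mm10). Reads at summits were recovered from fold enrichment and −log10 p as whole numbers within 0.001. limma 3.58.1 tested log2 fold enrichment, centred per library, over all regions in the 4 lists, with Benjamini-Hochberg adjustment and no replicate block. Exact permutation tests compared single values, 2-sided. The merging, read recovery and limma steps were tested on simulated data. Named genes were the 10 strongest regions, the strongest per exon class, those of fixed gene lists, the lowest p per direction, genes with at least 3 regions, and the regions with most exonic bases. Members and lists were chosen with earlier results of these data known. Alternatives covered thresholds, windows, ranking, normalization, the replicate block and leaving out each library.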

Additional observations from a re-analysis of the deposited data

How the results depend on the processing

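The 1415 regions became 531 (6.58% of the shared regions) when peaks needed a −log10 q of 10, 795 (3.46%) with the summit inside an exon and 556 (2.42%) with promoter windows of 5000 bp to both sides. Their share was 5.63% with at least 50 bp of exon overlap and 4.34% with exons of protein-coding transcripts only. Without one library the number ran from 1065 to 1127 and the share from 5.87% to 6.22%. The difference in GC content became 3.51 points with the summit inside an exon. Within 50 bp of the summit the motif shares were 8.98% for RUNX, 5.51% for PU.1-type ETS, 9.89% for EBF, 2.05% for ETS and 0.21% for NRF-1, the window being shorter. The difference in peak width was -7.25 bp with the summit inside an exon, and the cause was not tested.

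With the replicate block, labels being exchanged only within a number, the 5.02 percentile difference had an exact p of 0.5, the smallest possible. With the block limma called 0 exonic regions, and 1 region among all 16376, while 55 exonic regions (5.52%) and 839 of all (5.12%) had an unadjusted p under 0.05. The deviations of same-numbered libraries correlated at 0.75 over the exonic regions. With 2 pairs and no label for the number, the libraries share only a number. Without one library the percentile difference ran from 0.20 to 9.85, being 0.22 without CDK6-WT replicate 1 and 0.20 without CDK6-K43M replicate 2. Restricting peaks to a −log10 q of 5 gave 2.36, a value of 10 gave 0.19, and the difference was 3.04 with ranking by fold enrichment. The exonic minus intronic percentile was 2.01 when peaks needed a −log10 q of 5, and the exonic minus intergenic one 2.104. Summits rest on few reads, peak lists give no value where no peak was called, and 2 libraries per variant cannot reach p = 0.05 in a permutation test.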
